A study of Homo sapiens with 30 samples.

Results

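The interval described here runs from the CTCF site S2 across the body of NOTCH1 on chromosome 9 (hg19, 139375001 to 139441000, 66 kb). It was followed by 4C-seq from 3 viewpoints: the NOTCH1 promoter, S2 itself, and a further CTCF site, S4. Its members were all restriction fragment ends listed inside these limits, without the ends within 5 kb of a table's own viewpoint, where undigested and self-ligated fragments dominate. The members were chosen by position and not by their reads. They numbered 184 of 382657 ends on chromosome 9 in the tables of the promoter viewpoint, 181 of 429740 in those of S2 and 210 of 428705 in those of S4, or 575 of 1241102 over the 3 layouts. The mask removed 8 ends of the interval from the promoter tables, 29 from those of S2 and 0 from those of S4. Of the members, 133, 103 and 114 had a read in all 10 libraries of the promoter, S2 and S4 viewpoints, and 11, 26 and 28 had none in any.

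The cells were K562, a human chronic myeloid leukaemia line. Each viewpoint was profiled in wild-type (WT) cells and in cells with a mutated CTCF site: S2, S4, S5, or S4 together with S5. Each of the 15 groups had 2 libraries. The kind of mutation, the position of S5, and whether a mutant is 1 clone or a pool are not stated in the sources used. The labels call the 2 libraries independent but do not say that they came from separate cultures, so every p-value reflects only how far these libraries lie apart, and that spread may be technical.

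NOTCH1 encodes a transmembrane receptor whose cleaved intracellular domain enters the nucleus and acts with DNA-bound partners on target genes. CTCF is a zinc-finger protein that binds DNA in a defined orientation and halts loop-extruding cohesin, so that pairs of bound sites often mark the feet of chromatin loops. In 4C-seq, cross-linked chromatin is cut and ligated and the fragments joined to 1 chosen fragment, the viewpoint, are amplified and counted.

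The promoter viewpoint lay at 139443268, S2 57.4 kb centromeric of it at 139385872 and S4 80.5 kb telomeric of it at 139523746. The interval therefore holds S2 and nearly all of the sequence between S2 and the promoter, and S4 faces it from the other side of the promoter, 82.7 to 148.7 kb away. In the order of genes that RefSeq gives for GRCh38, SEC16A lies centromeric of NOTCH1, and the microRNA gene MIR4673 lies inside it. Without an hg19 annotation, the members were not assigned to exons, introns or UTRs. The promoter is shown because the labels name a viewpoint after it and because it is the telomeric limit of the gene body. Its 300 bases in RefSeq's GRCh38.p14 table, chr9:136545999-136546298 on the minus strand, are printed 5′ to 3′, with CCCTC and its reverse complement GAGGG, letters of the CTCF core motif, in capitals.
NOTCH1 promoter: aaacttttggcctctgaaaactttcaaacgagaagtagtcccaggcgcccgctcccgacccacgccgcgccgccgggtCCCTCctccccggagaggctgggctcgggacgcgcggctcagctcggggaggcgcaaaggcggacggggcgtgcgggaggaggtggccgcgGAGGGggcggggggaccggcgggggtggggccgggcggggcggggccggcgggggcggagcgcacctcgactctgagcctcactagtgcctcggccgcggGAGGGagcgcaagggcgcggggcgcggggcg
It held CCCTC 1 time and GAGGG 2 times, and 71.2% of 35116 promoters of the same length held at least 1 of these on either strand. It held no GATC, the site of DpnII, the first enzyme of the protocol, which was present in 41.7% of those promoters, and its GC content was 77.0% against a median of 58.7%. These matches describe the letters in this window and show no bound site. The window was not placed on hg19, so whether it holds the viewpoint fragment was not determined. The sequences of S2, S4 and S5 were not used here.

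Libraries held 1437870 to 8008761 reads on chromosome 9, and 64583 to 2691302 were near-cis, that is within 500 kb of the viewpoint and outside the mask. Reads of the interval numbered 18569 to 149229 per library at the promoter, 124739 to 978150 at S2 and 65368 to 707770 at S4. At the member ends, log2 reads of the libraries of 1 genotype correlated at r = 0.976 to 0.996, and those of different genotypes at 0.469 to 0.872 (across ends, which are not independent replicates). The spread of counts between such libraries exceeded counting error (chi-square per degree of freedom 1.12 to 87.0). WT libraries were the shallowest in chromosome 9 reads, with 1437870 to 2326487 against 3500663 to 8008761 in the mutants. In near-cis reads, the total behind the shares and fits, this held only at the S2 viewpoint. The lowest WT library had 212633 near-cis reads at the promoter and 798736 at S4, and the lowest mutant library 64583 and 424277. Because depth differed between WT and mutants, contrasts among mutants are given beside those with WT. For these, the mutant reference takes the place of WT and pools mutants in which the site under study is intact. Site S2 was judged against S4, S5 and S4-S5, site S4 against S2 and S5, site S5 against S2 and S4, and the double mutant against S2 alone. A change in the S2 mutant therefore moves the values of S4, S5 and S4-S5 against this reference, even where these mutants are near WT.

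The first question was how much of each viewpoint's near-cis contact falls on S2 and the NOTCH1 body, and whether a CTCF site mutation changed it. Seen from the promoter and from S2, the interval took a larger share of near-cis reads in every mutant than in WT. Seen from S4, it took a smaller share in the S2 mutant, a like share in the S4 mutant and a larger one in both mutants of S5. From the promoter, the WT libraries gave 23.0 and 22.9%. The S2 mutant reached 28.8 and 28.8%, the S5 mutant 27.8 and 28.0%, the S4 mutant 25.5 and 25.4%, and the S4-S5 mutant 23.8 and 24.2%. No mutant library fell to the WT level, and the S4-S5 mutant lay nearest to it.

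From S2, the WT libraries gave 25.0 and 25.0%, and the S2 mutant 39.3 and 39.3%, the highest share of any viewpoint and genotype. The S4 mutant gave 33.6 and 33.8%, the S5 mutant 34.0 and 34.4%, and the S4-S5 mutant 35.8 and 36.3%. All 8 mutant libraries thus lay above WT by several times the spread between replicates. From S4, the WT libraries gave 20.0 and 19.9%, the S2 mutant 15.3 and 15.4%, and the S4 mutant 19.9 and 20.0%. The S5 mutant gave 24.1 and 24.3% and the S4-S5 mutant 27.3 and 27.3%. The libraries of the S4 mutant overlapped WT, and those of the other mutants did not.

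These shares differed among the 5 genotypes at each viewpoint in an exact permutation of the F statistic over all 945 partings of 10 libraries into pairs (upper-tail exact p = 0.00106, 0.00106 and 0.00212 for promoter, S2 and S4, Benjamini-Hochberg adjusted 0.00187, 0.00187 and 0.00334 over 30 values). The smallest p this permutation can give is 0.00106, and a contrast of 2 libraries against 2 cannot go below 0.333, so single mutants were tested in edgeR only. They also differed among the 4 mutants alone (exact permutation p = 0.00952 at each viewpoint, the smallest that 105 partings can give). In edgeR's quasi-likelihood test on tiles of 66 kb, the whole interval being 1 tile, the promoter's log2 change against WT was 0.33 ± 0.02 (SE) in the S2 mutant, 0.15 ± 0.01 in S4, 0.28 ± 0.02 in S5 and 0.07 ± 0.01 in S4-S5, with Benjamini-Hochberg adjusted p of at most 3.56e-11. Of 16 tiles, 93.8% were called in the S2 mutant and 100% in each of the others, so being called was no distinction of this interval. The share called as higher was 25.0% in the S2 mutant and 18.8% in each of the others.

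At the S2 viewpoint the same test gave 0.65 ± 0.01 in the S2 mutant, 0.43 ± 0.01 in S4, 0.45 ± 0.01 in S5 and 0.53 ± 0.01 in S4-S5 (edgeR adjusted p at most 9.00e-11). Tiles called were 81.2%, 100%, 100% and 93.8%, and tiles called as higher were 25.0%, 31.2%, 31.2% and 12.5%. At the S4 viewpoint it gave a fall of the S2 mutant, with log2 -0.37 ± 0.03 (edgeR adjusted p = 6.32e-06), and rises of 0.28 ± 0.01 in S5 (adjusted p = 1.23e-07) and 0.45 ± 0.01 in S4-S5 (adjusted p = 9.59e-11). The S4 mutant, at 0.00 ± 0.01, did not pass (edgeR adjusted p = 0.633). The fall of the S2 mutant kept its sign but was only -0.11 when scaled to chromosome 9 outside the mask and -0.07 with DESeq2. Tiles called there were 93.8%, 87.5%, 93.8% and 100%, in the same order of mutants. Those called as lower were 62.5% in S2, and as higher 12.5% in S5 and 18.8% in S4-S5.

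The reference decided the direction in several of these contrasts. Against the mutant reference, the promoter's share was lower for S4 (-0.16) and S4-S5 (-0.26), and the 0.04 of the S5 mutant did not pass. At S2 it was lower for S4 (-0.12), S5 (-0.09) and S4-S5 (-0.12). In all of these the sign was the opposite of the one against WT, apart from the S5 mutant at the promoter. The S2 mutant kept its direction against the mutant reference at all 3 viewpoints, as did the S5 and S4-S5 mutants at S4.

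The scale mattered as well. As a share of all chromosome 9 reads, the interval seen from the promoter took 3.39 and 3.47% in WT. It took 0.343 and 0.349% in the S2 mutant, 1.12 and 1.13% in the S4 mutant, 0.941 and 0.923% in the S5 mutant and 2.25 and 2.38% in the S4-S5 mutant. On this scale all mutants lay below WT, the opposite of the near-cis order. From S4, WT gave 9.97 and 9.99%, the S2 mutant 1.24 and 1.31%, the S4 mutant 7.16 and 7.10%, the S5 mutant 5.75 and 5.81%, and the S4-S5 mutant 10.3 and 10.4%. Here the S5 mutant changed sides as well. From S2, WT gave 6.94 and 7.02% and the mutants 7.50 to 12.2%, so the direction was the same on both scales. The total of all chromosome 9 reads includes those within 5 kb of the viewpoint. As a share of chromosome 9 reads outside the mask, the interval from the promoter took 15.3% in WT and 19.7 to 24.2% in the mutants. All mutants thus lay above WT without the masked reads, as they did on near-cis reads. From S4 the S5 mutant was also above WT on that scale (log2 0.57).

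**Figure D1:**
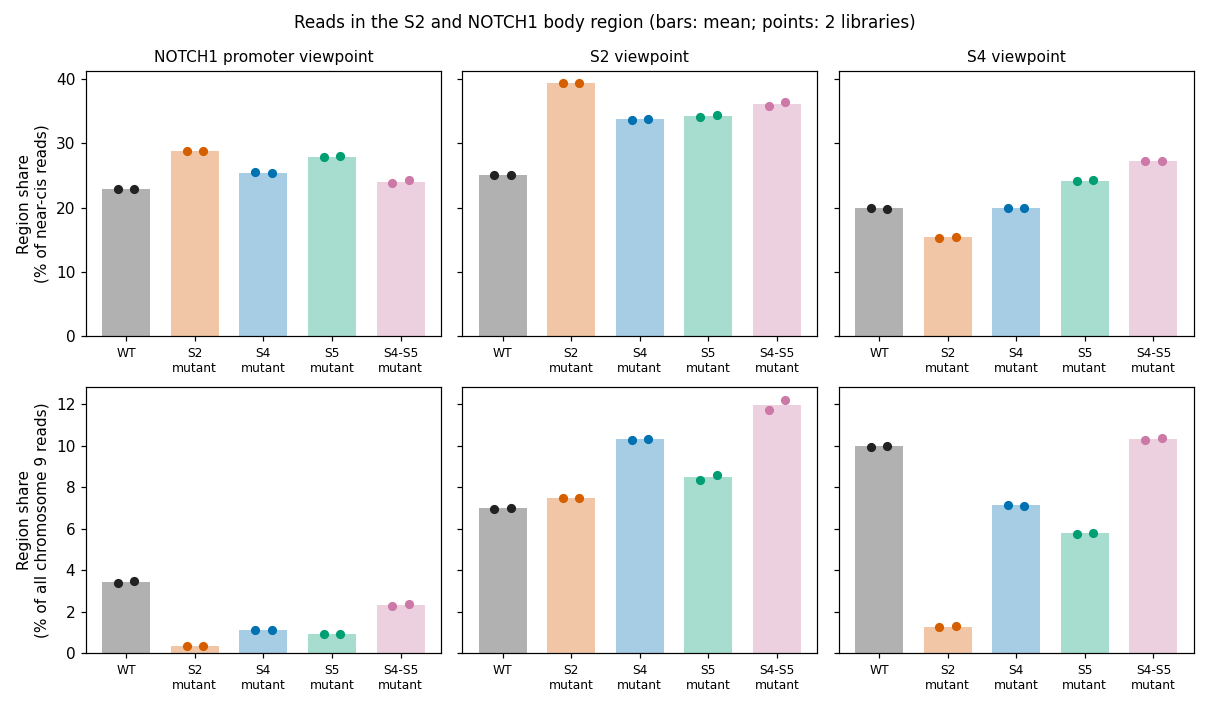
The share of reads in the S2 and NOTCH1 body interval is shown for each viewpoint (columns) and genotype, as percent of near-cis reads (top) and of all chromosome 9 reads (bottom), with bars for the mean and points for the 2 libraries. At the promoter all 8 mutant libraries lie above WT in the top row and below it in the bottom row.

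A ratio of intervals within 1 library needs neither total. The interval was set against its mirror image of equal length on the telomeric side of the viewpoint, 139445536 to 139511535 for the promoter and 139606492 to 139672491 for S4. This ratio was added after the data were seen. From the promoter, WT favoured the telomeric side, with log2 ratios of -0.52 and -0.52. The S2 mutant was shifted toward the interval (-0.40 and -0.40), the S5 mutant only slightly (-0.48 and -0.47), and the S4 mutant (-0.75 and -0.76) and S4-S5 mutant (-0.87 and -0.84) away from it. From S4, WT gave 2.48 and 2.48, the S2 mutant 1.99 as the mean of its libraries, the S4 mutant 2.69 and 2.68, the S5 mutant 2.62 and 2.62, and the S4-S5 mutant 3.16 and 3.14. The S2 mutant was thus the only genotype in which S4 faced the interval less than in WT on this ratio, and the ratio differed among genotypes at both viewpoints (exact permutation p = 0.00106 at each, adjusted 0.00187).

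The S2 anchor, the 10.0 kb around S2 (139380872 to 139390872, 24 ends in the promoter tables and 29 in those of S4), is the foot of any loop that S2 would form. From S4, 137.9 kb away, it took 6.17 and 5.99% of near-cis reads in WT. It took 4.58 and 4.69% in the S2 mutant, 8.91 and 9.09% in the S4 mutant, 10.3 and 10.2% in the S5 mutant and 10.3 and 10.4% in the S4-S5 mutant. The S2 mutant lay below WT and the other mutants above it, with no overlap between any of these and WT. The log2 ratios to WT were -0.39, 0.57, 0.75 and 0.77, and they kept their sign under every alternative run on near-cis shares. Against the mutant reference they were -1.09, 0.27, 0.59 and 1.16. Those values carry the changes of the pooled mutants and are no independent support: 1.16 sets S4-S5 against the S2 mutant alone, itself at -0.39. The anchor was not run with TMM factors or DESeq2, nor scaled to all chromosome 9 reads. On that last scale the whole interval from S4 lay below WT in the S2, S4 and S5 mutants. The anchor's share differed among genotypes (exact permutation p = 0.00106, adjusted 0.00187).

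Most of the fall in the S2 mutant rested on 1 fragment end. The non-blind end at 139388143, the most covered WT member seen from S4, took 0.945 and 1.07% in WT and 0.0328 and 0.0342% in the S2 mutant. In the S4 mutant it took 1.42 and 1.47%, in the S5 mutant 0.405 and 0.394%, and with both sites mutated 1.24 and 1.24%. The S2 mutant was nearly empty there, at 151 and 145 reads. Without this end the anchor took 5.28 and 4.97% in WT and 4.54 and 4.66% in the S2 mutant, so the gap narrowed but the libraries still did not overlap. The end was picked by its WT share after the data were seen, which favours a narrower gap, and no other end was left out for comparison. With the highest ends capped the anchor's log2 ratio was -0.12. The next most covered anchor end, 139383704, ran the other way, with 0.894 and 0.842% in WT and 1.14 and 1.10% in the S2 mutant. The blind end 139388323 took 0.554 and 0.572% in WT, 0.423 and 0.431% in the S2 mutant and 2.73 and 2.69% in the S5 mutant, its highest value.

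Seen from the promoter, the S2 anchor took 3.45 and 3.39% in WT, 4.15 and 4.27% in the S2 mutant, 3.12 and 3.06% in the S4 mutant, 5.46 and 5.52% in the S5 mutant and 3.80 and 3.81% in the S4-S5 mutant. In the S2 mutant the near-cis share of its own anchor was thus not lower as seen from the promoter. The anchor was not scaled to all chromosome 9 reads, where the whole interval from the promoter lay below WT in every mutant (log2 -3.31 in S2). The S5 mutant was highest, at a log2 ratio to WT of 0.68 (0.59 against the mutant reference). The S4 mutant was the only genotype below WT, at -0.15, and it turned positive when scaled to chromosome 9 outside the mask (0.17) and with a mask of 20 kb (0.06). The S4-S5 mutant, at 0.15, was at -0.14 against the mutant reference. Genotypes differed (exact permutation p = 0.00106, adjusted 0.00187).

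The centromeric flank, the 5.9 kb beyond the anchor, lies outside the stretch between S2 and the promoter. From S2 it took 1.42 and 1.40% in WT and 3.60 and 3.50% in the S2 mutant, against 1.44 to 1.73% in the other mutants. The S2 mutant was set apart, with a log2 ratio of 1.33 to WT and 1.13 to the mutant reference. Against their own mutant references, which include the S2 mutant and so carry its rise, the S4, S5 and S4-S5 mutants lay below 0 (-0.62, -0.65 and -1.23), though above WT. From S4 the S2 mutant was again the highest, at 1.70 and 1.82% against 1.20 and 1.23% in WT. From the promoter, the S5 mutant had the lowest value, 0.199 and 0.189% against 0.574 and 0.576% in WT, a log2 ratio of -1.57 that was -1.51 against the mutant reference. There the S4 mutant was highest, at 0.729 and 0.721%. The mutant reference also turned the sign of the flank in S4-S5 from the promoter (-0.56 to 0.05), and from S4 in the S4 mutant (0.14 to -0.15) and in S4-S5 (0.21 to -0.32). Flank shares differed among genotypes at each viewpoint (exact permutation p = 0.00317, 0.00212 and 0.00317 for promoter, S2 and S4, adjusted 0.00414, 0.00334 and 0.00414).

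The NOTCH1 body between both masks was divided into parts of 15.8 kb: an S2-side, a middle and a promoter-side part. Seen from the promoter, the middle part (139406671 to 139422469) took 5.71 and 5.69% in WT and 9.46 and 9.47% in the S2 mutant. The S4 mutant took 7.57 and 7.46%, the S5 mutant 6.09 and 6.28%, while the S4-S5 mutant, at 5.84% ± 0.232 (SD, n = 2), overlapped WT. Against the mutant reference these 3 were at -0.06, -0.46 and -0.70, so the S2 mutant alone was higher in both contrasts. The S2-side part took 5.95 and 5.98% in WT and less in the S2 mutant (4.94 and 4.83%), the S4 mutant (5.66 and 5.66%) and the S4-S5 mutant (4.59 and 4.73%). The first of these, at a log2 ratio of -0.29, and the S4 mutant, at -0.08, turned to 0.04 and 0.24 when scaled to chromosome 9 outside the mask. The promoter-side part was higher than WT (7.26 and 7.30%) in all 4 mutants, at 8.44 to 9.88%, but against the mutant reference the S4 and S4-S5 mutants were at -0.20 and -0.08.

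The balance along the gene was also taken as a ratio that needs no total, a value added after the data were seen. The log2 ratio of the S2-side to the promoter-side part, from the promoter, was -0.29 and -0.29 in WT, -0.99 and -1.03 in the S2 mutant, -0.58 and -0.58 in S4, -0.57 and -0.54 in S5, and -1.03 and -0.97 in S4-S5. Contacts of the promoter were weighted to the near side of the gene more in every mutant than in WT (exact permutation p over genotypes = 0.00423, adjusted 0.00529). From S2 the same ratio was 2.08 and 2.06 in WT, 2.64 and 2.74 in the S2 mutant, 2.63 and 2.67 in S4, 1.82 and 1.85 in S5, and 2.58 and 2.65 in S4-S5. Contacts of S2 were weighted to its own side of the gene in every genotype, least in the S5 mutant, although among mutants alone the exact permutation p was 0.0667. From S4 the ratio was 0.96 to 1.00 in WT and 0.19 to 1.57 in the mutants, which lay on both sides of WT. Genotypes differed there (exact permutation p = 0.00106, adjusted 0.00187), as did the mutants alone (exact permutation p = 0.00952).

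From S2, the S2-side part took 12.6 and 12.7% in WT, 20.4 and 20.8% in the S2 mutant, 18.3 and 18.5% in S4, 14.1 and 14.4% in S5, and 19.7 and 20.2% in S4-S5. The S5 mutant was nearest to WT here, while in the middle part it was the highest, at 14.2 and 14.4% against 7.94 and 7.90% in WT, with the other mutants in between. Against the mutant reference the S2-side part was at -0.45 in S5 and -0.05 in S4-S5, and the middle part at -0.02 in the S2 mutant, -0.30 in S4 and -0.08 in S4-S5, so these rises over WT were not rises over the other mutants. In non-blind ends the S5 mutant's S2-side part lay below WT (log2 -0.13) and the S2 mutant's middle part was level with it (-0.01). With a mask of 20 kb, which leaves only the far edge of the S2-side part, the S4 mutant's log2 ratio there was -4.95 in place of 0.54. The promoter-side part took 2.99 and 3.03% in WT and 2.90 to 4.00% in the mutants, highest in S5, and the S2 mutant's 0.08 there was -0.09 against the mutant reference and -0.87 in non-blind ends.

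From S4, the S2-side part (139390873 to 139406670) lay below WT in all 4 mutants, while the S2 anchor next to it lay above WT in 3 of them. WT took 4.91 and 4.87%, the S2 mutant 2.93 and 2.92%, the S4 mutant 2.54 and 2.48%, the S5 mutant 3.81 and 4.00%, and the S4-S5 mutant 4.50 and 4.44%. The S4-S5 mutant's log2 ratio of -0.13 turned to 0.13 when scaled to chromosome 9 outside the mask. Against the mutant reference the S5 and S4-S5 mutants were at 0.52 and 0.61. The middle part was highest in the S4-S5 mutant, at 8.68 and 8.61% against 5.17 and 5.32% in WT. The promoter-side part (139422470 to 139438267) took 2.53 and 2.43% in WT and 1.05 and 0.983% in the S2 mutant, against 2.17 to 2.43% in the other mutants. That log2 ratio of -1.29 stayed between -1.61 and -1.02 under the alternatives with WT as reference, on near-cis reads or on chromosome 9 reads outside the mask, and was -1.19 against the mutant reference. The S4, S5 and S4-S5 mutants were at -0.19, -0.04 and -0.07 to WT, and at 0.34, 0.59 and 1.22 against their mutant references. Those references include the S2 mutant, so the latter values carry its fall and are not rises over WT. Genotypes differed in all 3 parts of the body at each of the 3 viewpoints, with exact permutation p of at most 0.00317 (adjusted 0.00414).

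**Figure D2:**
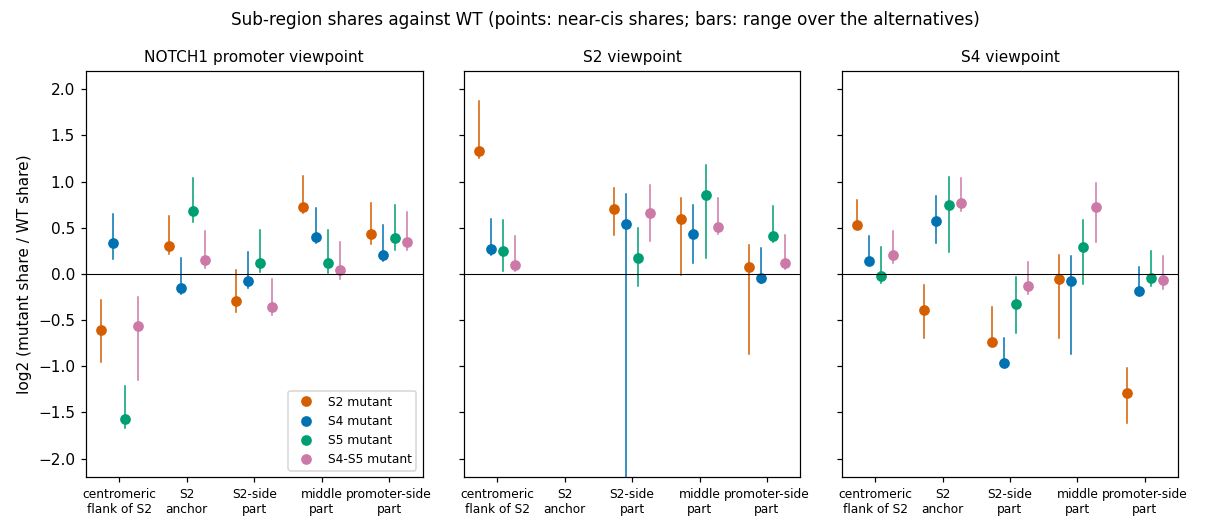
Log2 ratios of the mutant to the WT near-cis share are shown for 5 parts of the interval, by viewpoint and mutant, with points for the mean of 2 libraries and bars for the range over the alternatives run with WT as reference on near-cis or unmasked chromosome 9 reads. At S4 the S2 anchor is below 0 in the S2 mutant only (-0.39 against 0.57 to 0.77), and 1 bar at S2 runs beyond the axis to -4.95. The S2 anchor is masked at its own viewpoint.

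A finer view was taken in bins of 5 kb. From the promoter, 13 of 13 bins of the interval were called in the S2 mutant by edgeR's quasi-likelihood test, 10 higher and 3 lower, where 96.8% of 189 near-cis bins were called, 26.5% higher and 70.4% lower. The S4 mutant had 12 called bins, 9 higher and 3 lower, where 92.6% of all bins were called, 27.5% higher and 65.1% lower. The S5 mutant had 12, again 9 and 3, beside 93.1% of all bins, 30.2% higher and 63.0% lower. The S4-S5 mutant had 11, 5 higher and 6 lower, beside 86.8%, 24.3% higher and 62.4% lower. Called shares were thus near the background, and what differed from it was the direction. That background reaches 500 kb from the viewpoint, so the contrast was not matched for distance. Against the equally distant mirror interval, the mean log2 ratio was -0.52 in WT, -0.40 in S2 and -0.47 in S5. It was -0.76 in S4 and -0.86 in S4-S5, so with these mutations the mirror interval gained more near-cis share than the interval itself. The rise was therefore not particular to the interval there. The median log2 change of the bins in the interval was 0.21, 0.18, 0.19 and 0.04, against -2.05, -0.49, -0.64 and -0.44 over all near-cis bins. The split depended on scaling: with TMM factors the higher and lower counts became 11 and 1, 11 and 0, 10 and 1, and 9 and 2. With DESeq2 they were 13 and 0, 13 and 0, 12 and 1, and 11 and 1. Against the mutant reference they were 8 and 3, 4 and 6, 5 and 6, and 3 and 8. The shares of all near-cis bins called higher or lower were not taken for these settings, so these splits have no background beside them.

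From S2, 11 of 11 bins were called in the S2 mutant, 8 higher and 3 lower, beside 93.5% of all bins (26.9% higher, 66.7% lower). In S4 9 were called, 7 and 2, beside 86.0% (30.1% and 55.9%), in S5 10 and all of them higher, beside 88.2% (29.0% and 59.1%), and in S4-S5 8, 6 and 2, beside 84.4% (29.0% and 55.4%). Median log2 changes in the interval were 0.61, 0.25, 0.54 and 0.33, against -3.03, -0.34, -0.60 and -0.35 over 186 bins. TMM factors gave 11 and 0, 9 and 1, 11 and 0, and 10 and 0, and against the mutant reference 5 and 4, 3 and 8, 7 and 3, and 5 and 5. From S4, 13 of 13 were called in the S2 mutant, 2 higher and 11 lower, beside 96.3% of all bins (26.6% higher, 69.7% lower). In S4 13 were called, 5 and 8, beside 92.0% (31.4% and 60.6%), in S5 9, 4 and 5, beside 88.3% (29.8% and 58.5%), and in S4-S5 12, 8 and 4, beside 86.2% (23.9% and 62.2%). Median log2 changes were -0.40, -0.21, -0.02 and 0.14, against -2.22, -0.47, -0.38 and -0.44 over 188 bins. With TMM factors these splits became 8 and 5, 7 and 6, 11 and 2, and 11 and 0, so the S2 mutant's excess of lower bins was not kept under that scaling. Against the mutant reference they were 3 and 9, 4 and 8, 11 and 2, and 12 and 1. DESeq2 gave 11 and 0, 9 and 0, 11 and 0, and 9 and 0 from S2. From S4 it gave 11 and 2, 7 and 4, 11 and 1, and 12 and 0. As at the promoter, no background share was taken for these settings.

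**Figure D3:**
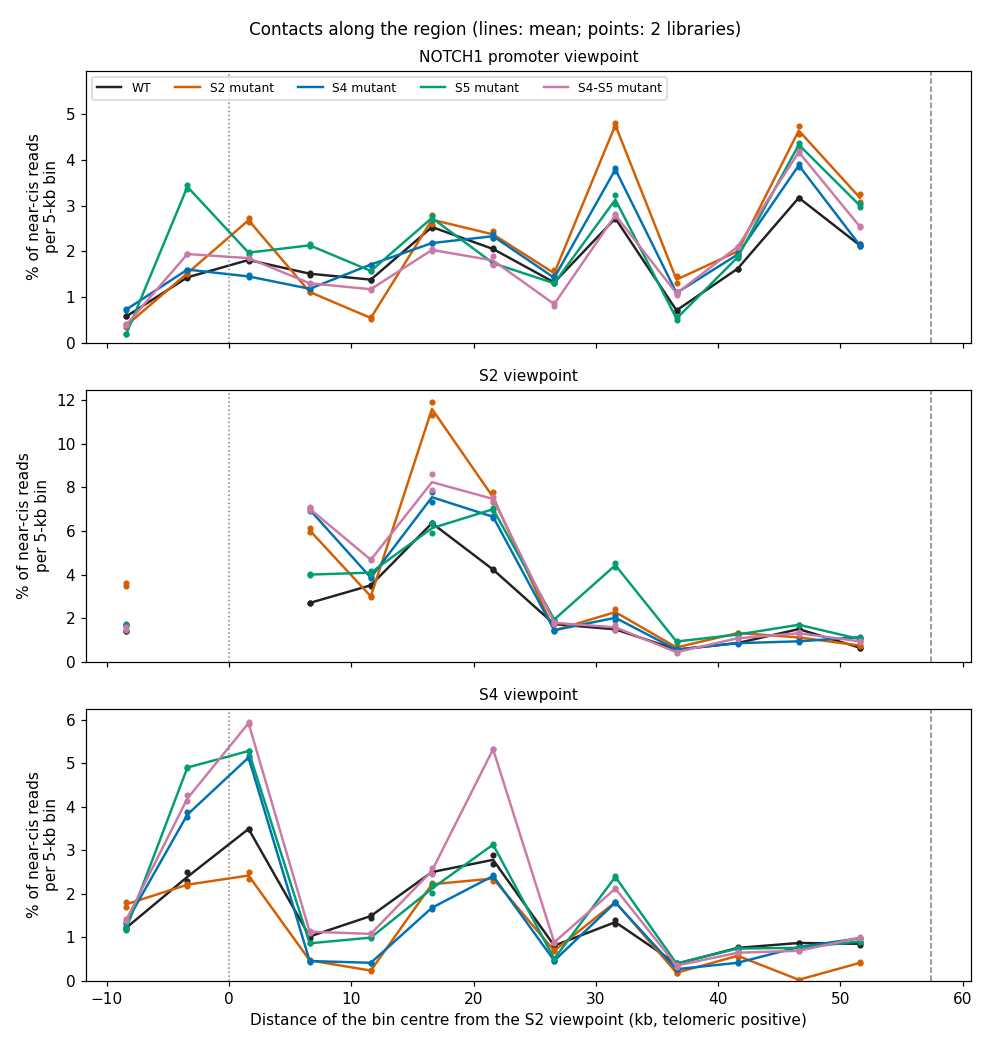
Near-cis shares per 5-kb bin are plotted against the distance of the bin centre from the S2 viewpoint, for each viewpoint and genotype, with lines for means and points for the 2 libraries. The dotted line marks S2 and the dashed line the promoter, and bins within the mask are missing. At S4 the S2 mutant drops to 0.0265% in the bin 46.6 kb from S2, where WT has 0.871%.

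That bin, 139430001 to 139435000 in the promoter-side part, showed the largest change of any named bin. From S4 it took 0.872 and 0.870% in WT and 0.0276 and 0.0255% in the S2 mutant, while the S4, S5 and S4-S5 mutants gave 0.689 to 0.783%. The S2 mutant fell by 5.03 ± 0.06 on the log2 scale (SE, edgeR adjusted p = 6.43e-22), and it kept that sign under all alternatives, where the smallest change was -3.37. The reads numbered 127 and 108 in the S2 mutant and 6965 and 9690 in WT, but 9 and 7 of its 16 ends still had a read against 11 and 12 in WT. From S2 the bin took 1.49 and 1.51% in WT and 1.15 and 1.10% with S2 mutated (log2 -0.42 ± 0.04, edgeR adjusted p = 8.24e-06), but this change was 0.68 with TMM factors and 2.18 with DESeq2.

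Single ends of that bin, looked at after its values were seen, joined the views from S2 and S4. Its 4 non-blind ends took 0.955 and 0.956% in WT and 0.0478 and 0.0203% in the S2 mutant from S2, and 0.557 and 0.571% against 0.0228 and 0.0212% from S4. Both viewpoints thus had nearly empty non-blind ends there in the S2 mutant, whereas the other 3 mutants kept 0.602 to 1.54% from S2 and 0.408 to 0.713% from S4. The blind end at 139432320 (fragment 139432199 to 139432324) took 1.10 and 1.07% from S2 in the S2 mutant, nearly all that the bin had, against 0.167 and 0.154% in WT. From S4 the same end took 0.00217 and 0.00330% in the S2 mutant and 0.0556 and 0.0659% in WT. Seen from the promoter, the bin had the highest WT share of the interval, 3.17 and 3.16%, and it rose in the S2 mutant to 4.73 and 4.56% (log2 0.55 ± 0.02, edgeR adjusted p = 3.86e-13).

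The bin that holds S2 (139385001 to 139390000) was the highest WT bin of the interval from S4, at 3.49 and 3.49%. It fell in the S2 mutant to 2.34 and 2.50% (log2 -0.53 ± 0.03, edgeR adjusted p = 1.23e-11), but was at 0.28 with TMM factors and 1.14 with DESeq2. It rose in the S4 mutant to 5.11 and 5.16%, in S5 to 5.29 and 5.27% and in S4-S5 to 5.95 and 5.90%, with log2 changes of 0.56, 0.60 and 0.76, of which the S5 one was -0.50 in non-blind ends. From the promoter the S2 bin rose in the S2 mutant (1.84 and 1.78% in WT, 2.63 and 2.73% in the mutant). It did not pass in the S4-S5 mutant, at 1.85 and 1.85% (edgeR adjusted p = 0.196).

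On the gene side of S2, the bin from 139395001, centred 11.6 kb from it, took a smaller near-cis share in the S2 mutant from both the promoter and S4. From S4 it took 1.52 and 1.45% in WT and 0.230 and 0.244% in that mutant (log2 -2.65 ± 0.05, edgeR adjusted p = 1.04e-19), and it kept its direction under every alternative. From the promoter it took 1.37 and 1.38% in WT and 0.528 and 0.555% with S2 mutated (log2 -1.35 ± 0.05, edgeR adjusted p = 2.79e-14, but 0.20 with DESeq2). In the S4 mutant the same bin fell from S4 to 0.418 and 0.415% (log2 -1.84 ± 0.04), again with the same sign under all alternatives.

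From the promoter, the largest rise of the S5 mutant was in the bin from 139380001, on the centromeric side of S2, from 1.42 and 1.44% in WT to 3.36 and 3.45% (log2 1.25 ± 0.02, edgeR adjusted p = 1.89e-17). The adjoining bin from 139375001 had its largest fall, to 0.199 and 0.189% (log2 -1.57 ± 0.06). Both kept their sign under every alternative, so neighbouring bins on the centromeric side of S2 changed in opposite directions in that mutant. The S2 mutant's largest rises from the promoter were in the bins from 139420001 (0.725 and 0.689% in WT, 1.31 and 1.45% in the mutant) and 139415001 (2.71 and 2.73% in WT, 4.81 and 4.71% in the mutant).

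At S2 the highest WT bin ran from 139400001, with 6.36 and 6.35%, and reached 11.3 and 11.9% with S2 mutated (log2 0.86 ± 0.05, edgeR adjusted p = 8.49e-08). It did not pass in the S5 mutant, at 5.90 and 6.37% (edgeR adjusted p = 0.375). The S5 mutant's largest rise at S2 was instead in the bin from 139415001, from 1.47 and 1.52% to 4.35 and 4.52% (log2 1.57 ± 0.08, edgeR adjusted p = 4.57e-08). The bin from 139390001, the first outside the mask, rose in the S2, S4 and S4-S5 mutants from 2.70 and 2.69% to between 5.95 and 7.10%, and less in S5, to 4.02 and 3.98%. From S4 the S4-S5 mutant's largest rise was in the bin from 139405001, from 2.68 and 2.89% to 5.32 and 5.32% (log2 0.93 ± 0.04, edgeR adjusted p = 2.44e-14).

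Single ends with the highest WT shares were not a fixed pattern across genotypes. From S2, the end at 139403178 took 1.90 and 1.93% in WT and 0.0114 and 0.00825% in the S2 mutant, 76 and 61 reads, although its bin rose in that mutant. In the S5 mutant it took 0.202 and 0.202%, in S4 0.667 and 0.647% and in S4-S5 0.751 and 0.729%. WT was above every mutant, but choosing the end by its WT share favours that order. The end at 139395841 ran the other way, from 1.02 and 1.04% in WT to 1.19 to 2.17% in the mutants. From the promoter, 139433903 varied least, with 0.685 and 0.713% in WT and 0.498 to 0.738% in the mutants, and 139438165 was above WT (0.602 and 0.638%) only in the S2 mutant, at 1.24 and 1.38%. Of the ends with at least 100 reads in both WT libraries, 127 from the promoter, 111 from S2 and 143 from S4, those with 0 reads in both libraries of a mutant numbered 1 to 3, 3 to 8 and 3 to 11. The same count was not made for the other near-cis ends, and picking ends by WT reads favours losses in mutants. These counts are therefore no trait of the interval.

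The promoter end of the interval, the last 2.7 kb before 139441000, is masked at the promoter and holds 8 ends at the other viewpoints. From S4 its 8 ends together had 0 to 19 reads per library, and no difference among genotypes was detectable (exact permutation p = 0.733). From S2 they had 1 to 11 reads in WT and the single mutants, but 1321 and 1621 in the S4-S5 mutant, all at the blind end 139439993. That is 0.0777 and 0.0602% of near-cis reads, against 0.000802 and 0.00168% in WT (exact permutation p = 0.0127, adjusted 0.0136). The value rests on this 1 end, and without blind ends the exact permutation p was 0.111.

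The reads of the interval were spread over fewer ends in the mutants. From the promoter, 50% of its reads lay on 33 and 33 ends in WT and on 15 to 29 in the mutants, lowest in S2. From S2 the numbers were 18 and 18 against 9 to 15, and from S4 28 and 25 against 12 to 16. No mutant library reached WT at any viewpoint. To compare coverage at equal depth, each library was thinned to the shallowest near-cis total of its viewpoint (64583, 499045 and 424277 reads). Then 88.8 and 89.7% of member ends had a read in WT from the promoter, 79.9 and 81.6% in the S2 mutant, 83.9 and 83.4% in S4, 83.8 and 84.4% in S5, and 88.7 and 89.7% in S4-S5, which overlapped WT. From S2 WT had 82.9 and 81.5% and the mutants 62.0 to 69.9%, and from S4 WT had 79.8 and 79.2% and the mutants 64.0 to 69.0%.

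Without thinning, WT had reads at 91.8 and 93.5% of members from the promoter, and the mutants at 79.9 to 91.8%. From S2 these shares were 82.9 and 82.3% in WT and 65.7 to 79.0% in the mutants, and from S4 81.0 and 81.0% and 68.1 to 76.2%. Genotypes differed after thinning (exact permutation p = 0.00741, 0.0212 and 0.00635 for promoter, S2 and S4, adjusted 0.00823, 0.0219 and 0.00762), but among the 4 mutants alone the exact permutation p was 0.0190, 0.190 and 0.0571. The other near-cis ends moved with the interval: at the promoter 45.6 to 46.1% of them were covered in WT and 30.5 to 43.6% in the mutants. The same shares were 55.1 to 55.7% and 30.4 to 37.8% for S2, and 52.3 to 53.6% and 33.1 to 39.1% for S4. Lower coverage in mutants was therefore not particular to the S2 and NOTCH1 body interval, and its part in the changes of single ends was not tested.

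**Figure D4:**
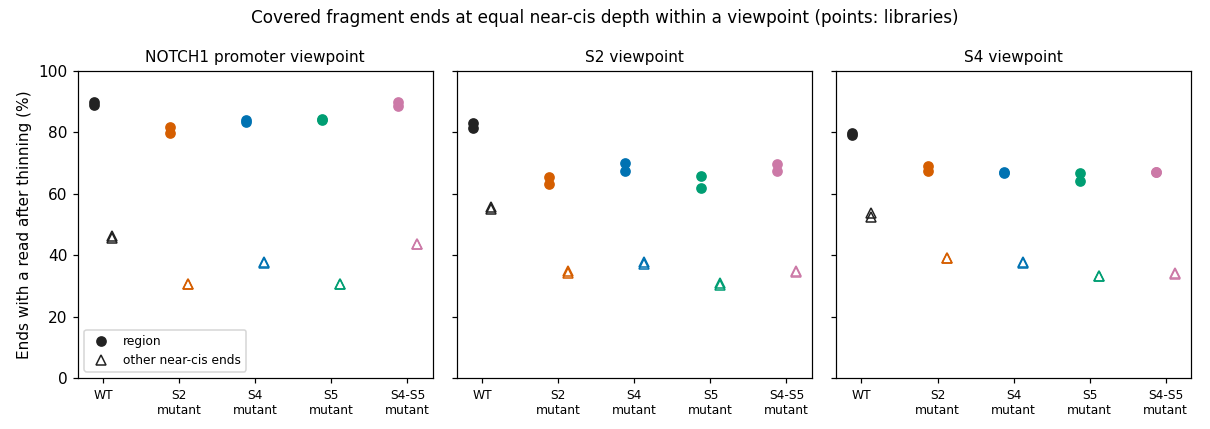
The percent of fragment ends with at least 1 read after thinning to equal near-cis depth is shown per library, for member ends (circles) and other near-cis ends (triangles). WT is highest at S2 and S4 for both, and at the promoter the S4-S5 mutant (88.7 and 89.7%) overlaps WT (88.8 and 89.7%).

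Fragments that lack a site of the second enzyme are called blind, and their ends are captured differently from non-blind ones. The members were 57 blind and 127 non-blind ends at the promoter, 124 and 57 at S2, and 139 and 71 at S4. From S2, blind members took 8.53 and 8.69% of near-cis reads in WT and 12.8 to 17.9% in the mutants, and non-blind members 16.5 and 16.3% against 18.4 to 23.0%. The rise was larger in blind ends. Each kind of end was also fitted alone, as a share of the near-cis reads on ends of that kind, the blind ones after the data were seen. On blind ends the log2 change was 1.08 in the S2 mutant, 0.79 in S4, 1.03 in S5 and 0.84 in S4-S5, against 0.37, 0.21, 0.07 and 0.35 on non-blind ends. From S4 these values were 0.73 in blind ends and -0.04 in non-blind ends of the S5 mutant, and 0.29 and -0.20 in S4. The S2 mutant was lower in both, at -0.11 and -0.56, and the S4-S5 mutant higher in both, at 0.59 and 0.36. At the promoter the non-blind values were 0.42, 0.23, 0.34 and 0.13 and the blind ones 0.01, -0.21, 0.05 and -0.20. As a share of all near-cis reads, however, blind members also lay above WT (3.21 and 3.36%) where S2 was mutated (4.64 and 4.55%) or S5 alone was (3.91 and 3.92%), so the contrast between kinds of end there depended on the denominator.

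The S4 and S5 mutations together were compared with the sum of their separate effects by an interaction term in the same edgeR fit. For the whole interval it was -0.36 ± 0.01 at the promoter (edgeR adjusted p = 1.89e-20), -0.35 ± 0.02 at S2 (adjusted p = 5.43e-09) and 0.17 ± 0.01 at S4 (adjusted p = 8.57e-07). On near-cis shares the double mutant was thus below the sum of the single mutants at the promoter and S2 and above it at S4. Of 16 tiles, 93.8%, 93.8% and 81.2% had an interaction past the threshold. At the promoter it was -0.04 in blind ends. At S2 the sign turned in non-blind ends (0.07), and at S4 when scaled to chromosome 9 outside the mask (-0.13) and in blind ends (-0.44). No interaction was fitted on all chromosome 9 reads. On that scale the promoter's log2 ratios to WT were -1.61 in S4, -1.88 in S5 and -0.57 in S4-S5. The double mutant was thus above the sum of the single mutants at the promoter on that scale.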

How the data were processed

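Per the labels' protocols, K562 cells were fixed in 2% formaldehyde for 10 min, cut with DpnII and ligated, then re-cut with CviQI or NlaIII and circularised. A PCR of 16 cycles on 200 ng preceded a second PCR and sequencing in single reads of 150 bp. Per the file headers, the authors deposited raw read counts per fragment end of chromosome 9 for each library, marked blind or non-blind. Their scaled and smoothed columns were not used. The submitters' processing notes name hg19 and deepTools, and no aligner or read filter is stated in the sources used. Without molecular identifiers, reads of 1 end are not independent ligations, and thinning covers counting error only.

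Counts were summed over the members, over parts of the interval, in bins of 5 kb and in tiles of 66 kb. Bins with a mean under 10 reads were left out. edgeR 4.0.16 (R 4.3.3) fitted all 10 libraries of a viewpoint with near-cis totals as library sizes, a two-sided quasi-likelihood F test, Benjamini-Hochberg adjustment over the bins of a contrast and a threshold of 0.05. Shares were compared with an exact permutation over 945 partings, adjusted over 30 values, 5 of them ratios added after the data were seen. The code was tested on simulated data. The members and lists were chosen with earlier results of these data known. Named bins were the bin holding S2, the bin with the highest WT share, and for each mutant the 2 bins with the largest change in each direction among called bins whose libraries lie beyond WT. Named ends were the 3 with the highest WT share per viewpoint. Same-numbered replicates deviated together in only 2, 3 and 2 of 10 pairs at the promoter, S2 and S4 (correlation over 0.1), so the numbers were not taken as pairs.

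Alternatives were TMM factors, DESeq2 1.42.0, scaling to chromosome 9 reads outside the mask or to all of them, no filter on low counts, a 20-kb mask, near-cis limits of 250 kb or 1 Mb, bins of 10 kb, non-blind ends, ends capped at the percentile 99 of covered ends, the mutant reference, the replicate block and each library left out. Blind ends alone and mutant libraries alone were added after the data were seen. Scaling to all chromosome 9 reads was run for the share of the whole interval only, not for its parts or bins. TMM factors and DESeq2 were run for tiles and bins only.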

Additional observations from a re-analysis of the deposited data

Results flagged for a closer look

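In the S2 mutant, the interval's near-cis share lay above WT in both libraries at the promoter and S2 (log2 0.33 and 0.65) and below WT in both at S4 (-0.37). The differences between the log2 values are 0.70 and 1.03, and neither difference was tested. The fall at S4 was -0.11 when scaled to chromosome 9 outside the mask and -0.07 with DESeq2. The S4 by S5 interaction of the interval passed the threshold in edgeR's quasi-likelihood test at all 3 viewpoints, with -0.36 (promoter), -0.35 (S2) and 0.17 (S4). These terms rest on WT as reference. The one at S2 was 0.07 in non-blind ends, the one at S4 was -0.13 when scaled to chromosome 9 outside the mask and -0.44 in blind ends, and the one at the promoter was -0.04 in blind ends. On all chromosome 9 reads, where no term was fitted, the double mutant at the promoter lay above the sum of the single mutants (log2 -0.57 against -1.61 and -1.88).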

How the results depend on the processing

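Results of the interval kept their direction and side of the threshold under TMM factors, DESeq2, no filter, windows, masks, capping and each library left out, except as follows (log2 changes unless named). For the whole interval at the promoter, the window of 250 kb gave -0.03 in S4-S5, the mutant reference -0.16 in S4, 0.04 in S5 and -0.26 in S4-S5, and blind ends 0.01 in S2, -0.21 in S4, 0.05 in S5, -0.20 in S4-S5 and -0.04 for the interaction. At S2 the mutant reference gave -0.12 in S4, -0.09 in S5 and -0.12 in S4-S5, and non-blind ends 0.07 for the interaction. At S4, the S4 mutant's 0.00 became 0.28 when scaled to chromosome 9 outside the mask, 0.13 with TMM factors, 0.27 with DESeq2, 0.09 with a mask of 20 kb, 0.06 within 1 Mb, 0.05 against the mutant reference and 0.29 in blind ends, but -0.20 in non-blind and -0.07 in capped ends. There the S5 mutant gave -0.04 in non-blind ends, and the interaction -0.13 when scaled to chromosome 9 outside the mask and -0.44 in blind ends. Scaled to all chromosome 9 reads, a scale not fitted in edgeR, the promoter's ratios to WT were -3.31 in S2, -1.61 in S4, -1.88 in S5 and -0.57 in S4-S5. On that scale the S5 mutant at S4 was at -0.79, and the S4 mutant there lay below WT. Bins of 10 kb called 40.0% of the interval's bins in S4-S5 at S2, where 5 bins remained. Exact permutation p-values that crossed the threshold were 0.114 (mutants alone) and 0.111 (non-blind ends) for the promoter end at S2. They were 0.190 (mutants alone), 0.0762 (mask of 20 kb) and 0.443 (non-blind ends) for thinned coverage at S2, 0.0571 and 0.139 (mutants alone, non-blind ends) for that at S4, and 0.0667 (mutants alone) for the balance of the body at S2. The cause of these changes was not tested.

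Scaling moved all bins: in the S2 mutant at the promoter the median over near-cis bins was -2.05, with TMM factors -1.45 and with DESeq2 -0.51. Named bins changed sign as follows, by the bin's first base. With DESeq2 at the promoter, S2 gave 0.20 at 139395001 and 0.94 at 139375001, S4 gave 0.23 at 139385001 and 0.19 at 139390001, and S5 gave 0.27 at 139420001. With DESeq2 at S2, S2 gave 2.18 at 139430001 and 2.34 at 139410001, S4 gave 0.26 at 139410001, S5 gave 0.69 at 139400001, and S4-S5 gave 0.18 at 139420001 and 0.33 at 139430001. With DESeq2 at S4, S2 gave 1.14 at 139385001, and S4-S5 gave 0.04 at 139395001 and 0.16 at 139430001. With TMM factors, S4 gave 0.02 at 139385001 from the promoter. From S2 they gave S2 0.68 at 139430001 and 0.83 at 139410001, S4 0.07 at 139410001, S5 0.43 at 139400001, and S4-S5 0.05 at 139420001 and 0.19 at 139430001. From S4 they gave S2 0.28 at 139385001 and S4-S5 0.06 at 139430001. Against the mutant reference at the promoter, S4 gave -0.21 at 139430001 and -0.03 at 139415001, S5 gave -0.00 at 139385001, and S4-S5 gave -0.54 at 139385001, -0.15 at 139430001, -0.35 at 139420001 and 0.05 at 139375001. At S2 it gave S4 -0.16 and S4-S5 -0.49 at 139400001, and S4-S5 -0.02 at 139405001 and 0.22 at 139430001. At S4 it gave S2 -0.21 at 139415001, S5 1.66 at 139395001, and S4-S5 2.19 at 139395001 and 4.70 at 139430001. These S5 and S4-S5 values carry the S2 mutant's own falls against WT at these bins (-2.65 and -5.03), as it is in their references. Scaled to chromosome 9 outside the mask, S4 gave 0.00 at 139385001 from the promoter and, from S2, 0.07 at 139410001, with S5 at 0.28 at 139400001 and S4-S5 at 0.11 at 139430001. Non-blind ends gave S4 -0.15 at 139400001 from S2, and S5 -0.50 at 139385001 and -0.56 at 139415001 from S4. Capped ends gave S5 0.37 at 139400001 from S2, and the window of 250 kb gave S4-S5 -0.06 at 139385001 from the promoter.

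With the replicate block, which the numbers do not support as pairs, the calls of the whole interval and of the named bins were the same. The interval at the promoter in the S2 mutant stayed at 0.33 (edgeR adjusted p = 7.01e-31), and counts of called bins differed only in S4-S5 at S2, with 7 higher and 2 lower in place of 6 and 2. No library left out changed a call of the whole interval or of a named bin, but other bins of 5 kb crossed the threshold. Without replicate 1 of the S2 mutant, for example, 8 and 3 bins were called at the promoter in place of 10 and 3. The main limits are the 2 libraries per group and the WT libraries' lower depth in chromosome 9 reads, which in near-cis reads held only at the S2 viewpoint. A further limit is the S2 mutant at the promoter, whose 64583 near-cis reads limit what low ends can show.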
